A study of Rattus norvegicus with 4 samples.

Results

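The receptors of oestrogens, progesterone and the adrenal steroids, and the oestrogen-related receptors, were followed as 10 genes in the uterus of pregnant rats: Esr1, Esr2, Pgr, Gper1, Pgrmc1, Pgrmc2, Nr3c1, Nr3c2, Esrra and Esrrg. The probe sets were taken by gene symbol from a list of receptor names, and all 10 were found among the 18166 genes measured, each with exactly 1 probe set. The rats were Sprague Dawley, aged 10 to 12 weeks, and the uterus was taken on day 5 of pregnancy, in the labels' words before implantation. In the ormeloxifene group (2 arrays) the animals had been given the drug by mouth at 1.25 mg per kg on day 1, suspended in gum acacia. In the control group (2 arrays) they had received the vehicle alone. Whole-tissue RNA was hybridised to Affymetrix arrays, and the labels do not say how many rats stood behind an array. Ormeloxifene, a contraceptive taken by mouth, is a non-steroidal ligand of oestrogen receptors that acts as agonist or antagonist by tissue. The 10 genes therefore include the receptors it binds, along with receptors for other steroids and the oestrogen-related receptors.

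Steroid receptors of the nuclear receptor superfamily bind their hormone inside the cell, move onto DNA as dimers and recruit coactivators or corepressors to nearby genes. In the uterus, oestrogen acting through its receptor drives growth of the epithelium and induces the progesterone receptor, and progesterone then halts epithelial growth and prepares the stroma for the embryo. Membrane-associated proteins such as Gper1 and the Pgrmc pair answer the same hormones outside this scheme, while the oestrogen-related receptors resemble oestrogen receptors in sequence but act without a natural hormone and govern energy metabolism.

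Values are log2 signals after quantile normalization, so a difference of 1 is a doubling of signal. Each member is given on every array, then as the ormeloxifene minus vehicle difference ± its standard error with a 95% interval from limma, a linear model with variances moderated across genes. Across the 18166 genes limma called 0 (0%) at an adjusted p under 0.05, whereas 399 (2.20%) had an unadjusted p under 0.05, 203 higher and 196 lower with ormeloxifene. Of the 10 receptors, 0 had an unadjusted p under 0.05 (smallest 0.287) and the adjusted p was 1.00 for every one. An exact permutation test over 4 arrays cannot go below p = 0.333. Arrays of the same replicate number shared identical deposited values: 488 between the replicate 1 arrays and 551 between the replicate 2 arrays. Each of the other 4 pairs shared 0. The origin of the identical values was not tested, and they do not measure likeness of expression. By correlation over genes, arrays of the same number were the most alike, at 0.980 for replicate 1 and 0.983 for replicate 2. The other 4 pairs ran from 0.963 to 0.973. Differences within each number are therefore given beside the pooled ones. Markers of stroma and smooth muscle had a median signal at the 97.1th and 98.0th percentile of all genes, and those of ovary and oviduct at the 30.8th. Such percentiles describe the brightness of probe sets, which depends on their probes, and stroma and muscle markers are shared with other tissues, so they do not by themselves identify the uterus.

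Esr1, which encodes oestrogen receptor alpha, the receptor through which oestrogen acts on uterine growth, read 9.30 and 9.77 on the vehicle arrays of replicate 1 and replicate 2 and 9.36 and 9.31 on the ormeloxifene arrays. One vehicle array was the highest of the 4, and the other vehicle array lay just under both treated ones, so the groups overlapped. The difference was -0.20 ± 0.24 (95% interval -0.75 to 0.35), that is 1.15-fold lower, with bounds from 1.68-fold lower to 1.28-fold higher. It was 0.06 within replicate 1 and -0.46 within replicate 2, and without vehicle replicate 2 it turned to 0.04. The signal of Esr1 stood at the 97.0th percentile of all genes.

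Esr2 encodes oestrogen receptor beta, which in the rat is most abundant in the ovary. The vehicle arrays read 5.77 and 5.48 and the ormeloxifene arrays 5.65 and 5.56, so both treated values lay between the controls. The difference of -0.02 ± 0.22 (-0.52 to 0.49) was the smallest of the 10 in size, and the probe set was dim, at the 33.5th percentile. Gper1, a G protein-coupled receptor of the membrane that responds to oestrogen, was dimmer still at the 24.0th percentile. Its vehicle arrays read 5.18 and 5.44 and its ormeloxifene arrays 5.16 and 5.10. Both treated arrays were lower than both controls, but only by 0.02 at the nearest pair. The difference was -0.18 ± 0.21 (-0.67 to 0.32), almost all of it from replicate 2 (-0.34, against -0.02 in replicate 1). As deposited, Gper1 overlapped between the groups, at 5.14 and 5.47 with vehicle and 5.05 and 5.23 with ormeloxifene.

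Pgr encodes the nuclear progesterone receptor and is itself a textbook oestrogen-induced gene of the uterus. Its vehicle arrays were almost equal, at 9.15 and 9.14, and the ormeloxifene arrays read 9.09 and 8.70. The groups did not overlap, yet the gap between the 2 treated arrays (0.39) was larger than the gap between the group means. The difference was -0.25 ± 0.22 (-0.77 to 0.27), or 1.19-fold lower with a bound of 1.71-fold lower. Within replicate 1 it was -0.06 and within replicate 2 it was -0.44, and without ormeloxifene replicate 2 it shrank to -0.06. The exact permutation p for Pgr was 0.333, the smallest this design allows, as it was for Gper1 and Nr3c2. Any gene whose groups do not overlap takes this value, so it adds nothing to the separation. The separation of the groups came with normalization: the deposited values were 8.89 and 9.38 with vehicle and 8.86 and 8.90 with ormeloxifene, which overlap.

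The window of 250 bases before a transcript start listed by RefSeq is shown for Esr1, Pgr and Esrrg. Esr1 and Pgr were taken for their part in the uterine hormone scheme described above. Esrrg was taken because a window of it was the only one among the members to hold an oestrogen response half-site. Sequences are from RefSeq on GRCr8, read 5′ to 3′ on the strand of the gene, with motif matches in capitals. For Esr1 the window is chr1:43641845-43642094 (plus strand), for Pgr chr8:14354148-14354397 (plus strand) and for Esrrg chr13:101755510-101755759 (plus strand, the third of its 4 listed starts). The only start listed for Esr1 lies inside the annotated gene, so its window is not upstream of the whole gene, while that of Pgr ends where the gene begins.
Esr1: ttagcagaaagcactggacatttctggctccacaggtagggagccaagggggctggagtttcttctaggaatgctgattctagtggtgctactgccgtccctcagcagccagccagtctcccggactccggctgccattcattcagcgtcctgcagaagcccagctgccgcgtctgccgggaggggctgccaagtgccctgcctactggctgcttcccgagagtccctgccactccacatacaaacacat
Pgr: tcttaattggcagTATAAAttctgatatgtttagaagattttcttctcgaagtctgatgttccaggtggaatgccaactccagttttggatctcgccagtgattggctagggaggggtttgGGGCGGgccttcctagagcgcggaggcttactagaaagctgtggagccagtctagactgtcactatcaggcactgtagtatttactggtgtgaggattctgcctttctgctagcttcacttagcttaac
Esrrg: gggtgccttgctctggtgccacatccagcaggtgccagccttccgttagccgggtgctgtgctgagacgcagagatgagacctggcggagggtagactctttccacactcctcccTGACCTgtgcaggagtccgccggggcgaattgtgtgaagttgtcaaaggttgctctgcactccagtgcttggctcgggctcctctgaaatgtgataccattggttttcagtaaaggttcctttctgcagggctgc

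Capitals in the Pgr window mark a TATA box match (TATAAA, 237 to 232 bases before the start) and a GC box match (GGGCGG, 129 to 124 bases before it); in the Esrrg window they mark the half-site match (TGACCT, the reverse complement of AGGTCA), 135 to 130 bases before the start. Both strands of 12 windows from 8 members were searched. The full oestrogen response element (GGTCA, any 3 bases, TGACC), the oestrogen-related receptor element TCAAGGTCA (whose last letters are an oestrogen half-site), the glucocorticoid and progesterone element (AGAACA, any 3 bases, TGTTCT) and its half-site TGTTCT matched in 0 of the 12. Over all 33469 promoter windows of the same length, these motifs were found in 0.0239%, 0.388%, 0.012% and 17.5%, and the oestrogen half-site in 14.1%. GC boxes were matched in 8 of the 12 windows, against 30.5% of all windows, and a TATA box match in 1 of the 12, against 12.9%. Most member windows held more G and C than the median of 51.2% over all windows, up to 80.0% in the second Esrrg window. Below it lay Pgr at 46.8% and the first Esrrg window at 42.4%. The part of base content in the GC box matches was not tested. A match describes letters only.

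Pgrmc1 and Pgrmc2 encode haem-binding membrane proteins of the MAPR family that have been linked to progesterone responses outside the nuclear receptor. Pgrmc1 read 8.44 and 9.11 on the vehicle arrays and 8.83 and 8.999 on the ormeloxifene arrays. Its controls lay on either side of both treated arrays, and the gap of 0.67 between them was larger than that of 88.4% of all genes. The difference was 0.14 ± 0.27 (-0.49 to 0.76), 0.39 within replicate 1 and -0.12 within replicate 2. Pgrmc2 read 7.50 and 7.96 with vehicle and 7.65 and 7.96 with ormeloxifene, so that it followed the replicate number rather than the treatment. Its difference was 0.07 ± 0.25 (-0.50 to 0.65). Both probe sets were bright, at the 94.5th and 83.9th percentile.

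Nr3c1 encodes the glucocorticoid receptor, which most cell types carry and which mediates the anti-inflammatory and metabolic actions of corticosterone. With vehicle it read 6.62 and 7.16, and with ormeloxifene 7.13 and 7.21. A single array, vehicle replicate 1, stood apart below the other 3, which spanned less than 0.1. The difference of 0.28 ± 0.25 (-0.29 to 0.85) was the largest of the 10 in size, at the 82.0th percentile of absolute differences over all genes. It was 0.51 within replicate 1 and 0.05 within replicate 2, and without vehicle replicate 1 it was 0.01. The upper bound is 1.81-fold higher.

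Nr3c2 encodes the mineralocorticoid receptor, which binds aldosterone and also glucocorticoids and controls sodium transport in epithelia. It read 5.20 and 5.23 with vehicle and 5.28 and 5.42 with ormeloxifene. The groups did not overlap, and both vehicle arrays lay within 0.03 of each other. The difference was 0.13 ± 0.20 (-0.35 to 0.61) at a dim signal, the 25.3th percentile. The deposited value of Nr3c2 was 5.16 on both replicate 1 arrays, equal to the last digit, so the difference of 0.08 within replicate 1 came from normalization alone. As deposited, the replicate 2 arrays read 5.26 with vehicle and 5.56 with ormeloxifene.

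Esrra and Esrrg encode oestrogen-related receptors that work with the coactivator PGC-1 on mitochondrial and fuel genes. Esrra read 6.14 and 6.55 with vehicle and 6.35 and 6.63 with ormeloxifene, a difference of 0.14 ± 0.24 (-0.41 to 0.70). Esrrg read 5.47 and 5.96 with vehicle and 5.67 and 5.85 with ormeloxifene, a difference of 0.04 ± 0.24 (-0.52 to 0.60). In both genes each replicate 2 array was above each replicate 1 array, whichever the treatment. Within replicate 1 and replicate 2 the differences were 0.21 and 0.08 for Esrra and 0.20 and -0.11 for Esrrg.

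**Figure D1:**
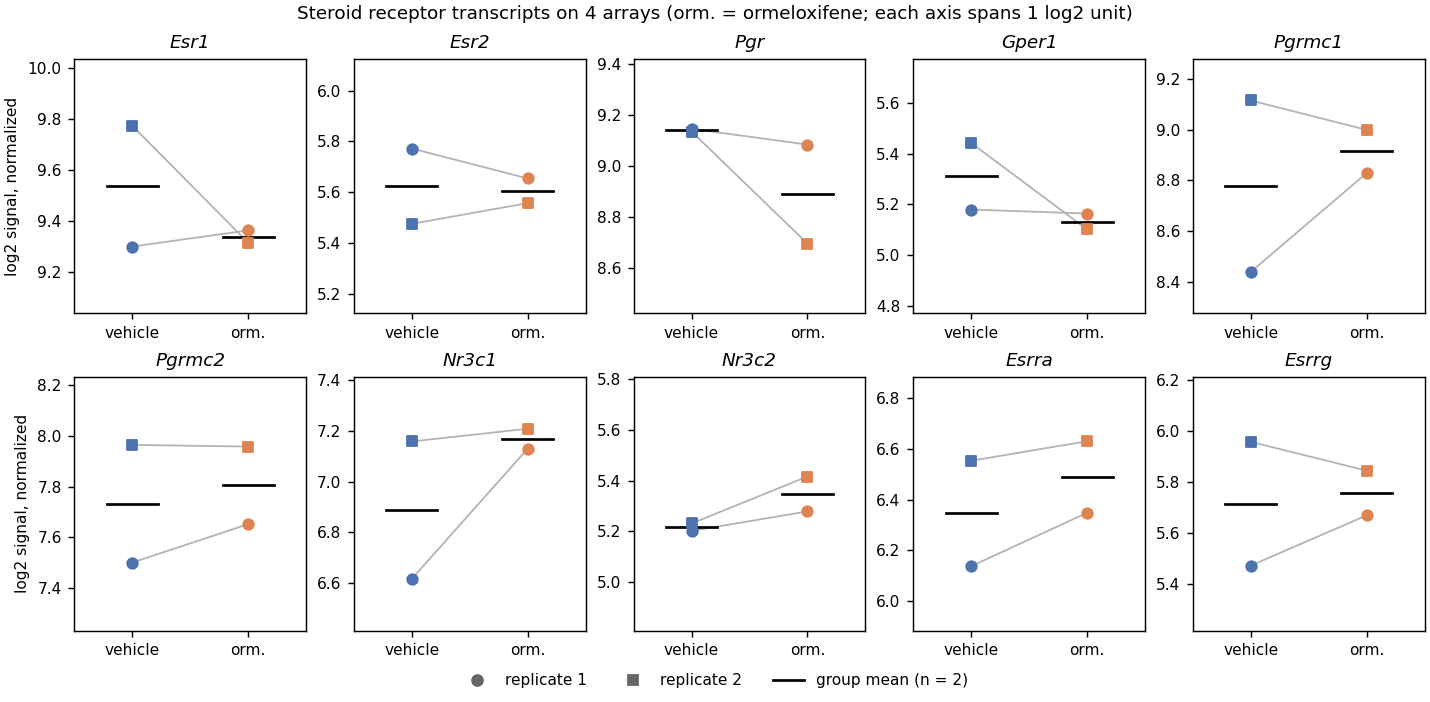
Normalized log2 signal of each receptor on the 4 arrays. Circles are replicate 1 and squares replicate 2, grey lines join arrays of the same number, black bars are means of the 2 arrays, and each vertical axis spans 1 log2 unit. The groups separate only in Pgr, Gper1 and Nr3c2, and in 6 panels (Pgrmc1, Pgrmc2, Nr3c1, Nr3c2, Esrra and Esrrg) the square lies above the circle in both groups.

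Across the 10 receptors, 6 were higher and 4 lower with ormeloxifene, with a median difference of 0.06 against 0.02 over all genes. Of all genes, 53.4% were higher, which is also the share to set beside the counts of higher genes in the lists below. The share to set beside list counts at an unadjusted p under 0.05 is 2.20%, from the same limma fit without a block. The median absolute difference was 0.14 for the receptors and 0.13 over all genes. In 3 members the groups did not overlap (Pgr and Gper1 lower, Nr3c2 higher), where 25.7% of all genes did not. As deposited, none of these 3 was separated. In 0 of the 10 was the difference larger than the gap between the 2 arrays of either group, which held in 16.0% of all genes. With the replicate number as a block, limma called 5 genes (0.0275%) at an adjusted p under 0.05 and 1228 (6.76%) had an unadjusted p under 0.05. The receptors had 0 in either count (smallest unadjusted 0.163, for Nr3c1, with an adjusted p of 0.839). The intervals without the block reached from -0.77 (Pgr) to 0.85 (Nr3c1), so a change of 1.81-fold or more lies outside the interval of every receptor.

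**Figure D2:**
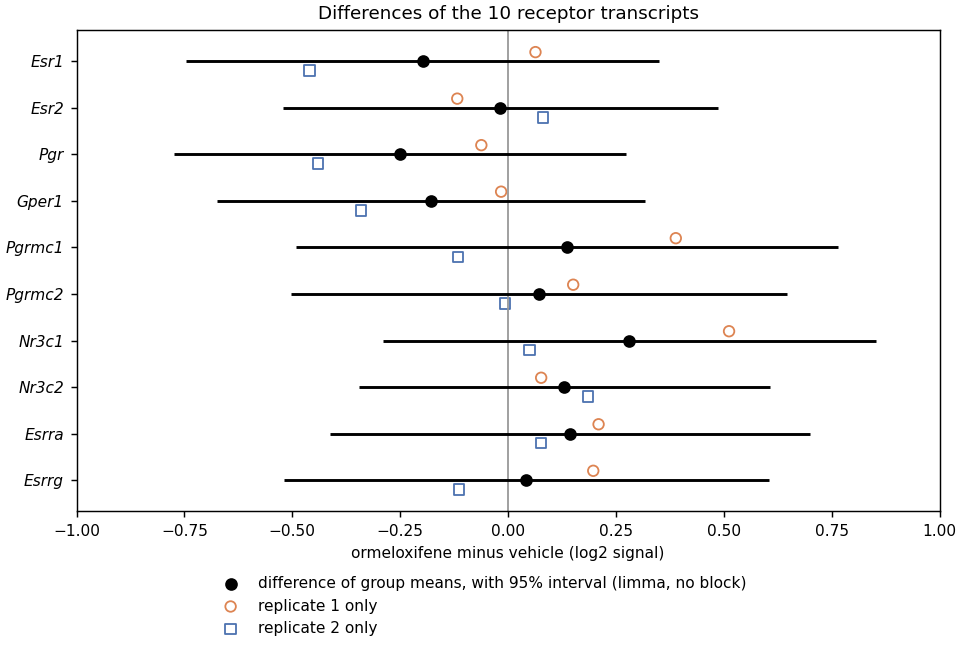
Ormeloxifene minus vehicle difference in log2 signal for the 10 receptors. Filled points with bars are the difference of group means with its 95% interval from limma without a block, and open circles and squares are the differences within replicate 1 and within replicate 2. Every interval includes 0, and for Esr1, Esr2, Pgrmc1, Pgrmc2 and Esrrg the differences within the numbers have opposite signs.

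After normalization, the spread of the receptors lay mainly among the vehicle arrays. In 8 of the 10 the gap between the vehicle arrays was larger than that between the ormeloxifene arrays, with Pgr and Nr3c2 as the exceptions, while this held for 55.0% of all genes. The median absolute gap of the receptors was 0.44 with vehicle and 0.15 with ormeloxifene, against 0.27 and 0.23 over all genes. All these gaps are of normalized values and depend on the scaling. As deposited, Pgr was no exception: its vehicle arrays (8.89 and 9.38) lay further apart than its ormeloxifene arrays (8.86 and 8.90). Vehicle replicate 2 was above vehicle replicate 1 in 8 receptors (54.6% of all genes). Vehicle replicate 1 was the lowest of the 4 arrays in 7, a count whose share over all genes was not taken. Leaving out vehicle replicate 1 therefore moved Pgrmc1 to -0.20 and Esrrg to -0.20, and leaving out vehicle replicate 2 moved them to 0.47 and 0.29. No member reached an unadjusted p under 0.05 when any 1 array was left out (smallest 0.0721), a setting in which a lone array is taken to vary like the other group. The closest of the 45 pairs of receptors in their pattern over the 4 arrays were Pgrmc2 with Esrra and Pgrmc2 with Esrrg, at a root mean square distance of 0.04 and 0.05 between centred values. The farthest was Pgr with Nr3c1, at 0.37.

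**Figure D3:**
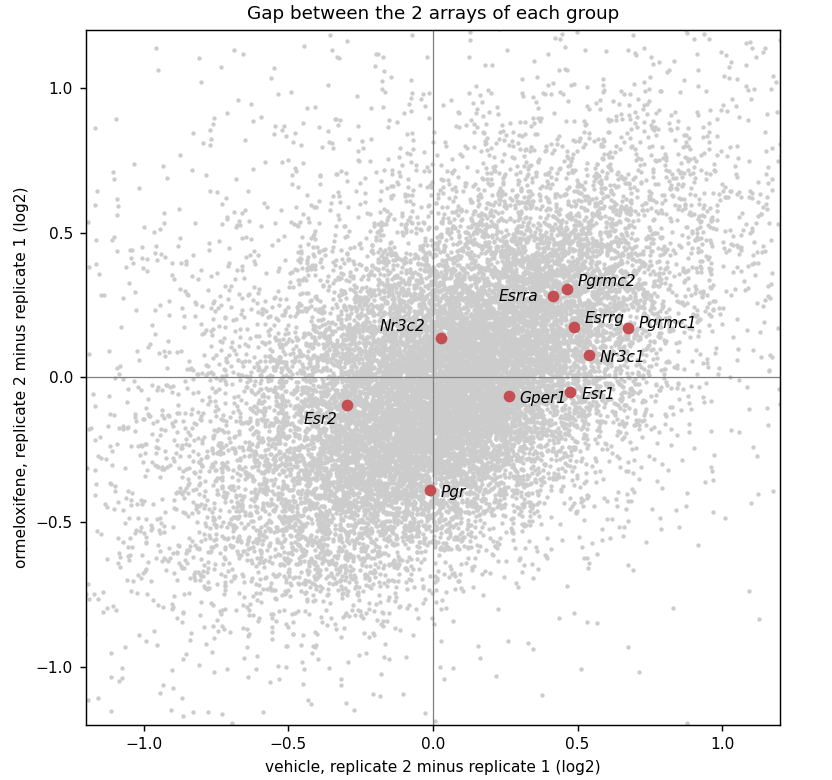
Gap between the 2 arrays of a group, replicate 2 minus replicate 1 in log2 signal, with vehicle on the horizontal axis and ormeloxifene on the vertical axis. Grey points are all genes, of which 363 fall outside the axes at 1.2, and red points are the receptors. Most receptors lie to the right of 0 and closer to the horizontal than to the vertical line, and Pgr lies below. The values are normalized. As deposited, Pgr was not lower on ormeloxifene replicate 2 (8.90) than on ormeloxifene replicate 1 (8.86).

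Among all genes, the ones nearest to Esr1 in the centred values of the 4 arrays were Poteh, Cyp2c13 and Cep78, at a root mean square distance of 0.01 to 0.02. Those nearest to Pgr were Itga5, Clec1b and Pofut2, at 0.02 each. With 4 arrays there are too few points for such likeness to be more than a description.

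Relatives of the receptors include a further oestrogen-related receptor, the membrane progestin receptors and other MAPR proteins. Of 8 measured, 4 were higher and 4 lower, 0 had an unadjusted p under 0.05, and the median was 0.03. The third oestrogen-related receptor, Esrrb, differed by 0.16 ± 0.24. The membrane progestin receptors differed by 0.17 ± 0.24 (Paqr7), 0.08 ± 0.21 (Paqr8), -0.03 ± 0.22 (Paqr5), -0.01 ± 0.21 (Paqr6) and -0.15 ± 0.23 (Paqr9). Of the further members of the MAPR family, Cyb5d2 differed by 0.17 ± 0.22 and Nenf, a secreted neurotrophic factor, by -0.33 ± 0.21. The Nenf arrays read 6.36 and 6.42 with vehicle and 6.18 and 5.95 with ormeloxifene, without overlap. Cyb5d2 did not overlap either, in the other direction, at 6.15 and 6.47 with vehicle and 6.48 and 6.49 with ormeloxifene. Over all genes, 25.7% did not overlap.

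Steroid receptors are kept ready for hormone by the HSP90 chaperone machinery. Of 11 chaperone genes measured, 10 were lower and 1 higher with ormeloxifene, with 0 at an unadjusted p under 0.05 and a median of -0.17 against 0.02 over all genes. Without 1 array the number lower ran from 7 to 9, and without vehicle replicate 2 there was 1 lower gene at an unadjusted p under 0.05. Leaving out 1 ormeloxifene array moved Dnaja1 between -0.66 and -0.12 and Stip1 between -0.56 and -0.18. Stip1, which hands client receptors from HSP70 to HSP90, differed by -0.37 ± 0.23, the HSP70 cochaperone Dnaja1 by -0.39 ± 0.25 and the HSP70 family member Hspa4 by -0.30 ± 0.20. Hsp90ab1 itself, singled out after its values were seen, read 10.24 and 8.92 with vehicle and 9.95 and 9.07 with ormeloxifene, so that its arrays differed far more by replicate number than by treatment (-0.07 ± 0.45).

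Coregulators, which receptors recruit to DNA, were split with 10 higher and 6 lower of 16 measured, a median of 0.03 and 0 at an unadjusted p under 0.05. With arrays centred on their medians the split was 8 and 8, and without ormeloxifene replicate 1 the median was -0.05. The smallest p-values belonged to Gata2, a transcription factor that acts with the progesterone receptor in the uterus (0.37 ± 0.25), and to the p160 coactivators Ncoa3 (0.30 ± 0.20) and Ncoa2 (0.30 ± 0.22). Gata2 was 0.10 without ormeloxifene replicate 1 and 0.64 without ormeloxifene replicate 2.

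Enzymes that make or inactivate steroids within the tissue were higher in 12 of 12 measured, at a median of 0.19. The unadjusted p was under 0.05 in 1 of them and the adjusted p in 0. That count depended on which arrays were kept: without ormeloxifene replicate 1, 6 were higher and 6 lower, and the median was 0.00. Without vehicle replicate 2, 8 of 12 were higher. Hsd17b7, which converts oestrone to oestradiol and also serves cholesterol synthesis, read 5.88 and 5.78 with vehicle and 7.12 and 6.42 with ormeloxifene, a difference of 0.94 ± 0.27 that was 0.59 without ormeloxifene replicate 1. Hsd11b2, which inactivates corticosterone and so shields the mineralocorticoid receptor, read 9.03 and 9.10 with vehicle and 9.79 and 9.34 with ormeloxifene (0.50 ± 0.23). It was 0.28 without ormeloxifene replicate 1. Aromatase, Cyp19a1, differed by 0.24 ± 0.20 at a very dim signal, the 5.73th percentile.

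Target genes were counted for each receptor from lists of genes that textbooks place under its control. These lists, like the others here, were chosen with earlier results of these data known. Their counts are therefore a description and not an independent test. Of 28 oestrogen targets, 12 were higher and 16 lower, with a median of -0.17. An unadjusted p under 0.05 was found in 6 of the 28, 4 higher and 2 lower, against 2.20% of all genes. The higher ones were Padi2, a peptidylarginine deiminase (1.25 ± 0.21), complement C3 (1.18 ± 0.21), the Wnt antagonist Sfrp4 (0.90 ± 0.24) and the calcium-binding S100g (0.90 ± 0.33). The lower ones were Gadd45g (-0.74 ± 0.23) and the water channel Aqp5 (-0.68 ± 0.27). S100g, Gadd45g and Aqp5 are named after their values were seen. Without ormeloxifene replicate 2, 3 higher and 0 lower genes stood at that level, and without vehicle replicate 2 the median was -0.05. Of 26 progesterone targets, 15 were higher and 11 lower, at a median of 0.08 that became -0.14 without vehicle replicate 1. At an unadjusted p under 0.05 stood Igfbp1, a decidual growth factor binding protein (-1.05 ± 0.29, and -0.67 without vehicle replicate 2), Calca (-0.50 ± 0.21, named after its value was seen), the zinc finger factor Zbtb16 (0.53 ± 0.21) and the leucine zipper protein Tsc22d3 (0.48 ± 0.20). The list held 1 such gene on deposited values and 1 on centred arrays, against 4 here, and with 1 array left out the list held 0 to 1 higher and 1 to 2 lower genes at that level.

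Zbtb16 and Tsc22d3 are also classical targets of the glucocorticoid receptor. Of 21 glucocorticoid targets, 12 were higher and 9 lower at a median of 0.13, and 3 had an unadjusted p under 0.05, all higher: these 2 and the sulphotransferase Sult1a1 (0.60 ± 0.23). Tsc22d3 read 6.50 and 6.47 with vehicle and 6.95 and 6.99 with ormeloxifene. Without vehicle replicate 1, and likewise without ormeloxifene replicate 2, the list held 0 higher and 2 lower genes at that level, and on deposited or centred values it held 0. Its median turned to -0.08 without vehicle replicate 1, with 9 higher and 12 lower, and was 0.06 without ormeloxifene replicate 2. Fkbp5, a chaperone that the receptor itself induces, differed by 0.26 ± 0.21 (named after its value was seen).

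Of 11 mineralocorticoid targets, 6 were higher and 5 lower at a median of 0.13. Of the 11, 4 had an unadjusted p under 0.05, all higher, against 2.20% of all genes, and 0 an adjusted one. The smallest p-values were those of Ndrg2, an aldosterone-responsive gene (10.51 and 10.55 with vehicle, 11.31 and 11.10 with ormeloxifene, 0.68 ± 0.21), and Atp1b1, the beta subunit of the sodium pump (8.84 and 8.84, then 9.48 and 9.42, 0.61 ± 0.20). Kcnj1, a potassium channel, differed by 0.53 ± 0.21 at the 10.6th percentile of signal. The subunits of the epithelial sodium channel, named after their values were seen, lay the other way, at -0.22 ± 0.21 for Scnn1a, -0.15 ± 0.21 for Scnn1b and -0.30 ± 0.21 for Scnn1g. On the values as deposited, 0 of the 11 had an unadjusted p under 0.05, and with 1 array left out the number higher at that level ran from 0 to 2. With arrays centred on their medians, 2 of the 11 had an unadjusted p under 0.05. The median ran from -0.04 without vehicle replicate 1 to 0.47 without vehicle replicate 2. The list shares Tsc22d3, Sgk1 and Per1 with the glucocorticoid list.

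Genes of energy metabolism under the oestrogen-related receptors were split with 9 higher and 9 lower of 18, a median of -0.01 and 0 at an unadjusted p under 0.05. With centred arrays 7 were higher and 11 lower. The deacetylase Sirt3 differed by 0.32 ± 0.20, the malate dehydrogenase Mdh1 by -0.31 ± 0.21 and the fatty acid dehydrogenase Acadm by 0.29 ± 0.20.

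**Figure D4:**
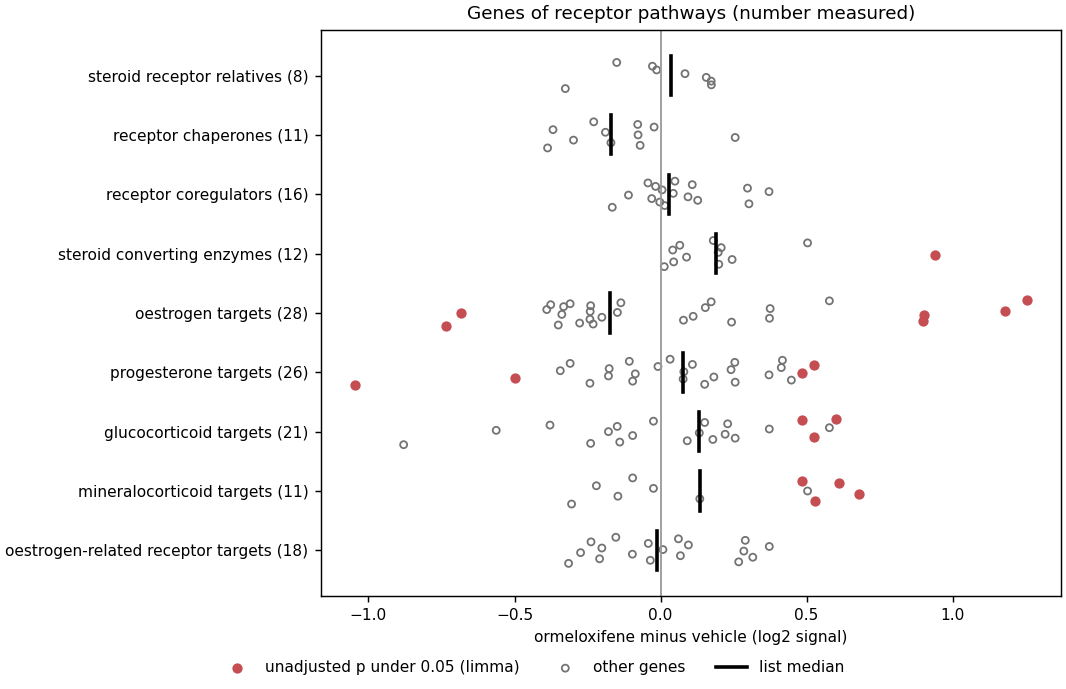
Ormeloxifene minus vehicle difference in log2 signal for genes of 9 lists around the receptors, 1 point a gene, with the number measured beside each name. Filled red points have an unadjusted p under 0.05 by limma and black bars are list medians. Red points stand on both sides of 0 among oestrogen and progesterone targets and on the higher side only among steroid converting enzymes, glucocorticoid and mineralocorticoid targets.

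Markers of the tissue's cell types were measured on the same arrays, since in bulk RNA fewer cells of a type and less RNA per cell cannot be told apart. All 8 smooth muscle markers measured had a higher mean in the treated uterus, at a median of 0.34, with 0 at an unadjusted p under 0.05. Leaving out vehicle replicate 2 brought the median to 0.11, and leaving out ormeloxifene replicate 1 to 0.20. Their mean signal was 9.84 and 9.57 with vehicle and 10.11 and 9.90 with ormeloxifene. Endothelial markers were higher in 7 of 7 (6 of 7 with centred arrays), at a median of 0.16 and mean signals of 7.54 and 7.66, then 7.78 and 7.74. Epithelial markers were higher in 6 and lower in 9 of 15 (median -0.04, mean signals 7.12 and 7.31, then 7.08 and 7.13), and stromal markers were higher in 6 and lower in 5 of 11 (median 0.07, mean signals 9.79 and 9.88, then 9.91 and 9.86). Leukocyte markers had a median of 0.06 over 14 genes, and fat tissue markers one of 0.23 over 6. Among epithelial, leukocyte and red blood cell markers, 1 each was lower at an unadjusted p under 0.05. On this log2 scale none of the markers is at 0, and their part in the values of the receptors and their targets was not tested.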

How the data were processed

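The 4 arrays comprised 2 of ormeloxifene and 2 of vehicle. The deposited table holds the authors' log2 signals for 36685 probe sets, made with Affymetrix Expression Console per the submitters' processing notes; its version, the summary method and the build were not given in the sources. The log2 scale was read from the values (0.92 to 13.59). Column medians ran from 5.67 to 5.93, so all probe sets were quantile normalized together. That could shrink real shifts shared by most genes. The number of arrays limits the precision, and no source says that replicates came from separate animals beyond calling them biological. The p-values therefore rest on spread between these arrays, which limma pools in part across genes. For Nr3c2 the standard deviations were 0.10 with ormeloxifene and 0.02 with vehicle, while the standard error of the difference was 0.20.

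Platform annotation gave 1 symbol to 18511 probe sets, several to 575 and none to 17599. Symbols were updated by gene number to GRCr8 (18394 matched). Of several probe sets of a gene the brightest was kept. Differences were fitted with limma 3.58.1 in R 4.3.3 (lmFit, eBayes, 2-sided, 2 residual degrees of freedom, 7.55 after moderation) and adjusted by Benjamini-Hochberg over 18166 genes. The code was tested on simulated data. The members and lists were chosen with earlier results of these data known. Named genes were the members, their relatives, the 3 of smallest p in each list and the 3 nearest profiles of Esr1 and Pgr. The alternatives changed scaling, probe set choice, dim signals, variance model, replicate block and arrays.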

Additional observations from a re-analysis of the deposited data

How the results depend on the processing

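No member passed an adjusted p of 0.05 in any setting tried. Esr2 was 0.011 on the values as deposited, with and without the replicate block. With 1 array left out, Esr1 ran from -0.44 to 0.0392, Esr2 from -0.17 to 0.13, Pgrmc1 from -0.20 to 0.47, Pgrmc2 from -0.16 to 0.30, Esrra from -0.0641 to 0.35 and Esrrg from -0.20 to 0.285. Pgr (-0.45 to -0.06), Gper1 (-0.31 to -0.05), Nr3c1 (0.01 to 0.55) and Nr3c2 (0.06 to 0.20) kept their sign. Among other genes, Paqr7 ran from -0.0299 to 0.38, Paqr9 from -0.35 to 0.0504, Esrrb from -0.0430 to 0.36, Paqr8 from -0.00632 to 0.17, Paqr5 from -0.16 to 0.10, Paqr6 from -0.12 to 0.0885, Poteh from -0.45 to 0.0542, Cyp2c13 from -0.40 to 0.0536 and Cep78 from -0.46 to 0.000745. Genes at an adjusted p under 0.05 numbered 1 with arrays centred on medians, 1 with probe sets averaged, 4 without the lower quartile of signal (Gper1 among those left out), 4 with trend and robust variance, 5 with the replicate block, 84 with that block on deposited values and 0 to 3 with 1 array left out. At an unadjusted p under 0.05 there were 142 on deposited values, 888 with all probe sets, 1228 with the block, 1163 with the block on deposited values and 309 to 945 with 1 array left out; the cause was not tested. Without a block the split was 57 higher and 85 lower on deposited values and 112 and 183 with centred arrays. The block on deposited values called Padi2, C3, Sfrp4, Hsd17b7 and Igfbp1. The replicate numbers of 2 pairs do not by themselves pair the samples. The table has no detection values, so how far the dim Esr2, Gper1 and Nr3c2 stood above background is unknown. With 1 array left out, the lone array was assumed to vary like the other group.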
